A study of Mus musculus with 16 samples.

Results

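The 9 genes described here are markers or products of basophils and mast cells and the cytokine genes of type 2 immunity: Fcer1a and Ms4a2, which encode chains of the high-affinity IgE receptor; the granule protease genes Mcpt8, Prss34 and Cpa3; the transcription factor gene Gata2; Hdc, which encodes histidine decarboxylase; and the cytokine genes Il4 and Il13. They were chosen by name with their levels in these conditions already known, so every difference given is a description, and all 9 are present among the 23356 genes of the deposited table. Transcripts were sequenced from bone marrow-derived dendritic cells (BMDCs), that is, cells grown from mouse bone marrow for 6 days in medium with recombinant GM-CSF and IL-4. All cells were on a C57BL/6 background and came from wild-type (WT) mice or from Tmem173-/- mice (without STING, the receptor for cyclic dinucleotides), Irf1-/- mice, or mice labelled Irf3/7-/-, which lack 2 other interferon regulatory factors. Cells were left untreated (NT) or received 25 µg/ml of the bacterial dinucleotide c-di-GMP (CDG), in both cases for 18 h, and each of the 8 conditions is listed with 2 samples. The dose is that of the sample labels, whereas the legends of the study state a higher one. The study asked which part of the transcriptional response to STING depends on IRF1 and which on IRF3 and IRF7. Floating and loosely attached cells were taken as BMDCs, with no sort stated for these samples, and the knockouts were germline, so every cell type of a culture carried them.

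Basophils and mast cells are blood and tissue cells that bind IgE through the receptor FcεRI, and crosslinking of that receptor by antigen releases stored histamine and proteases. Both cell types depend on GATA2 during development and can secrete IL-4 and IL-13, the cytokines that drive IgE production, mucus secretion and alternative macrophage activation. Cultures of mouse bone marrow can contain them beside dendritic cells. Mcpt8 and Prss34 encode proteases that mark mouse basophils, whereas tryptases and several other chymases mark mast cells.

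The table gave 1 FPKM (fragment counts scaled by gene length and by library size) for each gene and condition with an interval, and replicates had been combined before deposit. No value of a single culture could therefore be read, depth per sample is unknown, and no p-value or SD is given. A gene was called different when its FPKM + 0.1 differed more than 2-fold, the intervals did not overlap, and at least 1 FPKM was reached in 1 of the conditions compared. The interval reached 22.6 to 42.6% of the FPKM on either side for 7 of the genes, but 43.0 to 82.2% for Il4 and 39.6 to 92.9% for Il13, which were low. Of the targeted genes, Tmem173 was at 8.97 (NT) and 7.49 (CDG) FPKM in Tmem173-/- cells against 103 and 118 in WT cells. Irf1 was at 25.9 and 116 FPKM in Irf1-/- cells against 149 and 245 in WT cells. Irf7 was at 1.07 and 4.97 FPKM in cells labelled Irf3/7-/- against 15.2 and 687 in WT cells. Irf3 was lower in the untreated cells with that label, at 7.74 against 19.9 FPKM, but not in the treated ones, at 20.2 against 15.8 FPKM. Which exons the alleles lack is not given in the sources used here, and "Irf3/7-/-" below is the name of the label. All 10 dendritic cell markers were at 1 FPKM or more in every condition, with a summed FPKM of 5210.4 to 9348. A separate table of the study, made with another tool for WT and treated cells, lists other levels of several genes in WT cells. Among them are far lower levels of granzyme genes, the T cell gene Cd3e, Csf2 and Il31, higher treated levels of Cd200r3 and Itga2b, and the opposite direction with c-di-GMP for Il13 and Retnla. The values of those genes in WT cells therefore rest on the deposited table alone and are uncertain. Whether WT levels of further genes differ in the same way was not tested, so all comparisons with WT cells carry this limit.

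GATA factors bind short words around GATA, and the stretches before the start sites are shown for the genes that hold such a word near their start. The word AGATAA, its variant AGATAG, the word TGATAA and its variant TGATAG were searched on both strands in RefSeq windows of 300 bases (GRCm38.p6) that begin 250 bases before each start site. Il4 and Gata2 have 2 RefSeq windows each, and only the window nearest the deposited locus start was used. The RefSeq starts used for Hdc and Gata2 lie inside the gene spans given below, which come from another annotation (GENCODE). Their windows are therefore not upstream of those spans. At least 1 word was found for 7 of the 9 genes, whereas 29.8% of all 32851 windows of this length held one. Ms4a2 had 3 words, and 7.77% of all windows had 2 or more. The 250 bases before the start are written 5′ to 3′ on the gene's own strand, with the GATA words in capitals, for Ms4a2 (chr19:11623720-11623969, minus strand), Fcer1a (chr1:173227230-173227479, minus), Prss34 (chr17:25298144-25298393, plus), Cpa3 (chr3:20242182-20242431, minus), Il13 (chr11:53634703-53634952, minus) and Hdc (chr2:126618679-126618928, minus).
Ms4a2: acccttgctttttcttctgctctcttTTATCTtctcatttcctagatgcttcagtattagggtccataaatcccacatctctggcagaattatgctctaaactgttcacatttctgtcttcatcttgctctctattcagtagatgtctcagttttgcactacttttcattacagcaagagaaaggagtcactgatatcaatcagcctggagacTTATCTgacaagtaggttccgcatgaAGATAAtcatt
Fcer1a: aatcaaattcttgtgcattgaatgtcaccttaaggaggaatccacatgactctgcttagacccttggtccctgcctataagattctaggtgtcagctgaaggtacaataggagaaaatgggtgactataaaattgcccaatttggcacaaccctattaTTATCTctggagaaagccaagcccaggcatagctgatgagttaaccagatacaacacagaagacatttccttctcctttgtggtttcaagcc
Prss34: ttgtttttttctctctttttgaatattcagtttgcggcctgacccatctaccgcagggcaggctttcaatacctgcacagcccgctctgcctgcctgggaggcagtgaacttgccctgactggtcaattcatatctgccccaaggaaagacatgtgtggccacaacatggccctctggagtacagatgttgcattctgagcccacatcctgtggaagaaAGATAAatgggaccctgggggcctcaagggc
Cpa3: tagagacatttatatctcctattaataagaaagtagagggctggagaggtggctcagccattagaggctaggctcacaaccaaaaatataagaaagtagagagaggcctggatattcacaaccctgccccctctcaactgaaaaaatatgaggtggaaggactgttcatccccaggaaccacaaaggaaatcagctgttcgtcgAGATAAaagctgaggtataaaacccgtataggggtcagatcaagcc
Il13: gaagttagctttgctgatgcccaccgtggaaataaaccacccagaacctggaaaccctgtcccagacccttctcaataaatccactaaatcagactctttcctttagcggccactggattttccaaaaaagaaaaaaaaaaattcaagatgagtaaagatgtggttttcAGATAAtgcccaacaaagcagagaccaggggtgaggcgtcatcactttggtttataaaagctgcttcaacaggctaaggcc
Hdc: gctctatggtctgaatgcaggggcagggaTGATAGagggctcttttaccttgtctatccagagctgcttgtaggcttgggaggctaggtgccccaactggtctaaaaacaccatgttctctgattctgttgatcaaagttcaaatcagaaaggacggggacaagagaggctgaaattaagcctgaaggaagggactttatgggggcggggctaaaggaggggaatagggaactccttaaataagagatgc

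Counted from the start site, the words began at positions -224, -37 and -11 in Ms4a2, -92 in Fcer1a, -31 in Prss34, -46 in Cpa3, -81 in Il13 and -221 in Hdc. The word of Il4 lay behind its start, at position 15, and the windows of Mcpt8 and Gata2 held none of these letters. The word AANNGAAA, the core that interferon regulatory factors bind, matched 4 of the 9 windows, those of Il4, Il13, Cpa3 and Ms4a2, and 23.9% of all windows. The STAT word TTCNNNGAA matched none of the 9 and 8.3% of all windows. The TATA word TATAAA matched Il13, Cpa3 and Fcer1a, and 13.6% of all windows, and no GATA word overlapped another motif searched. These matches describe letters in the windows and are not evidence of binding.

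Both IgE receptor chains were highest in Irf3/7-/- cells, with and without c-di-GMP. Fcer1a (chr1:173221284-173227214, minus strand) encodes the IgE-binding alpha chain. Without treatment its level was 2.66 FPKM for WT, 2.48 for Tmem173-/-, 2.42 for Irf1-/- and 13.0 for Irf3/7-/- BMDCs. In treated cells it was 3.87, 2.11, 5.61 and 19.1 FPKM in the same order. The intervals of the Irf3/7-/- conditions, 9.15 to 16.9 FPKM untreated and 13.6 to 24.6 FPKM treated, overlapped each other but none of the other 6. The log2 difference between Irf3/7-/- and WT was 2.25 untreated and 2.27 treated, or 4.76-fold and 4.84-fold. Fcer1a also rose with c-di-GMP in Irf1-/- cells, by 1.18 on the log2 scale, which became 0.95, under the 2-fold limit, with a pseudocount of 1 FPKM.

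Ms4a2 (chr19:11615523-11623719, minus strand) encodes the signal-amplifying beta chain. Its untreated levels were 1.92, 1.81, 2.38 and 5.52 FPKM in WT, Tmem173-/-, Irf1-/- and Irf3/7-/- cells, and its treated levels were 2.28, 2.15, 3.36 and 7.40 FPKM. The treated Irf3/7-/- interval, 5.58 to 9.22 FPKM, overlapped only that of the untreated Irf3/7-/- cells, whose own interval, 4.08 to 6.95 FPKM, also touched that of treated Irf1-/- cells, 2.43 to 4.30 FPKM. The log2 difference from WT was 1.48 untreated and 1.66 treated. The common gamma chain gene Fcer1g, which many myeloid cells share, was far more abundant, at 419 to 1045 FPKM, and was not called between Irf3/7-/- and WT cells in either state.

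**Figure D1:**
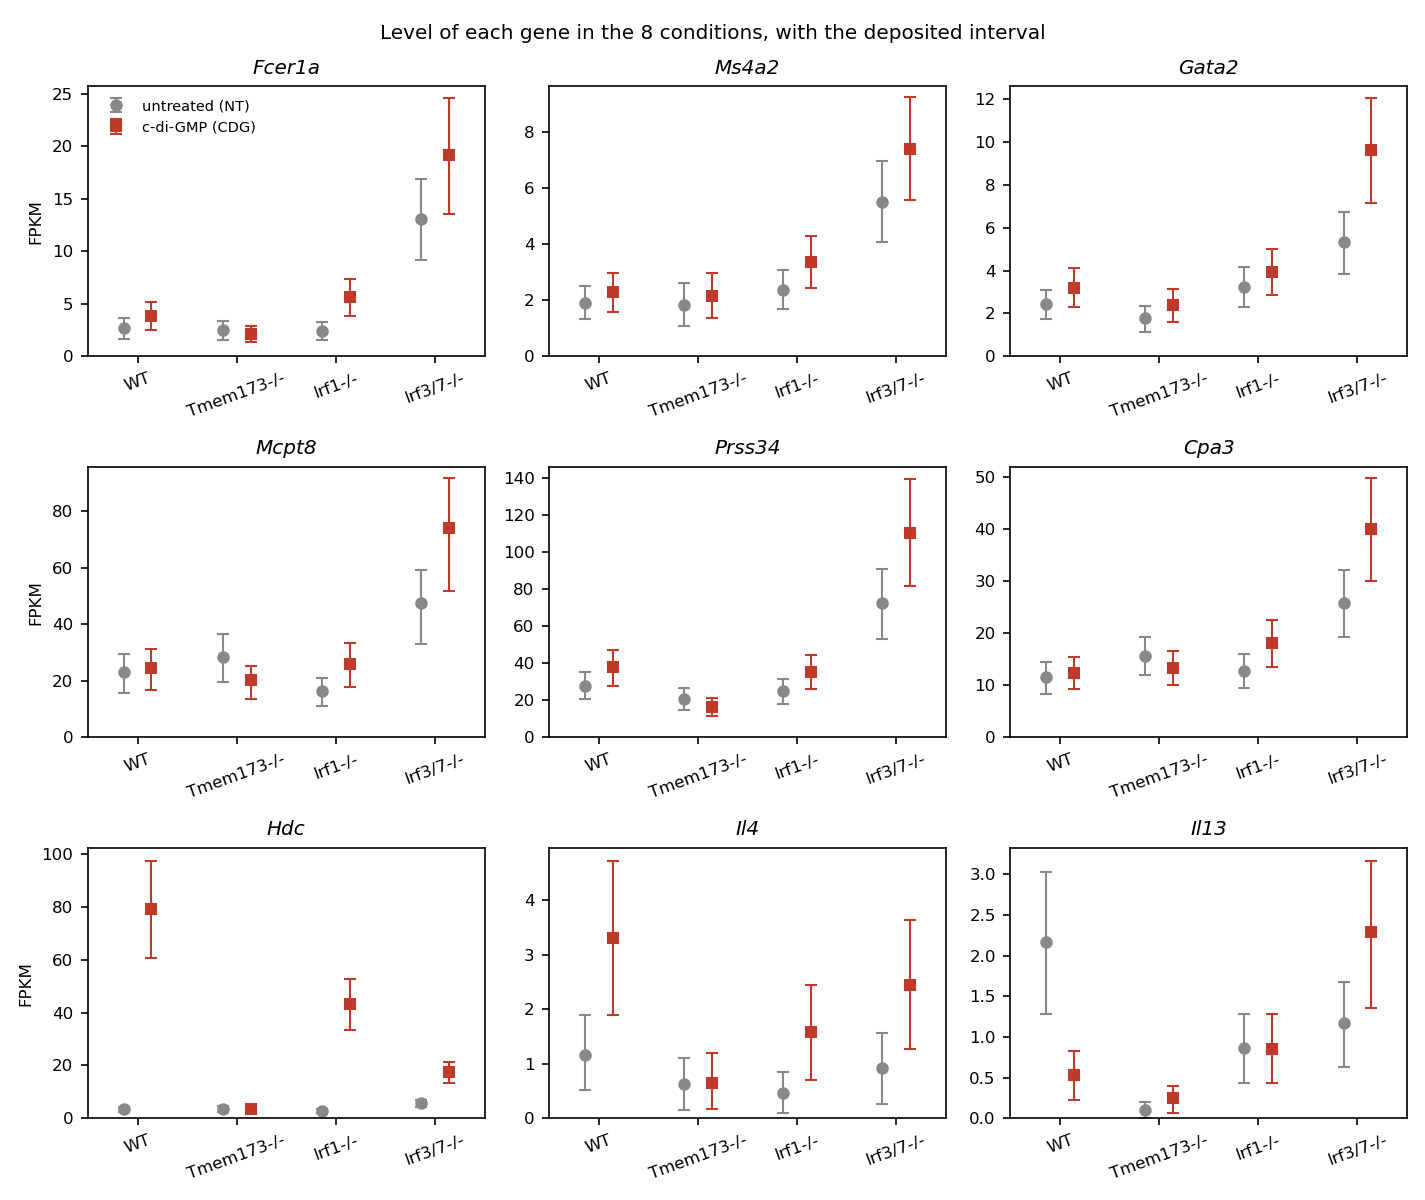
FPKM of the 9 genes (y axis, from 0) by genotype (x axis), untreated in grey and with c-di-GMP in red; points are the deposited FPKM and bars the deposited interval. Fcer1a, Ms4a2, Gata2, Mcpt8, Prss34 and Cpa3 were highest in both Irf3/7-/- conditions, Hdc in treated WT cells (79.1 FPKM) and Il4 in treated WT cells (3.30 FPKM).

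The granule protease genes followed the receptor chains. Mcpt8 (chr14:56082166-56085273, minus strand), a basophil protease gene, was at 23.3, 28.4, 16.3 and 47.5 FPKM in untreated WT, Tmem173-/-, Irf1-/- and Irf3/7-/- cells. With c-di-GMP it was at 24.5, 20.2, 26.0 and 74.0 FPKM. The untreated Irf3/7-/- interval, 32.9 to 59.0 FPKM, lay above the untreated WT interval, 15.8 to 29.6 FPKM, but overlapped those of untreated Tmem173-/- and treated Irf1-/- cells. Prss34 (chr17:25298394-25300165, plus strand) encodes another basophil protease and was the most abundant of the 9 in both Irf3/7-/- conditions. Its untreated levels were 27.9, 20.6, 25.0 and 72.4 FPKM, and its treated levels 37.9, 16.2, 35.2 and 110.4 FPKM. Both Irf3/7-/- intervals, 53.2 to 90.8 and 81.4 to 139.3 FPKM, lay above those of all other conditions.

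Cpa3 (chr3:20215620-20242181, minus strand) encodes carboxypeptidase A3, which mast cells and basophils store. It was at 11.5, 15.6, 12.7 and 25.7 FPKM untreated and at 12.3, 13.3, 18.1 and 39.9 FPKM treated, in the same order of genotypes. The treated Irf3/7-/- interval began at 30.0 FPKM and overlapped only that of the untreated Irf3/7-/- cells, which ended at 32.1 FPKM. Between Irf3/7-/- and WT cells the log2 differences were 1.03 (Mcpt8), 1.37 (Prss34) and 1.16 (Cpa3) untreated, and 1.59, 1.54 and 1.69 treated. In treated Tmem173-/- cells, Prss34 was lower than in treated WT cells, with a log2 difference of -1.22, whereas Mcpt8 (-0.28) and Cpa3 (0.11) were not called.

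Gata2 (chr6:88193891-88207032, plus strand), whose product is needed for basophil and mast cell development, was likewise highest in Irf3/7-/- cells. It was at 2.44, 1.80, 3.25 and 5.32 FPKM in untreated WT, Tmem173-/-, Irf1-/- and Irf3/7-/- cells and at 3.20, 2.40, 3.93 and 9.62 FPKM in treated ones. Treated Irf3/7-/- cells had the only interval, 7.16 to 12.1 FPKM, that overlapped no other condition. The log2 difference from WT was 1.10 untreated and 1.56 treated, and the log2 difference with c-di-GMP within Irf3/7-/- cells was 0.84, below the 2-fold limit with intervals apart. Gata1, a related factor of mast cells and eosinophils, was at 0.524 to 2.48 FPKM and highest in treated Irf3/7-/- cells. Gata3, a factor of T cells and innate lymphoid cells, was also highest there, at 2.37 FPKM against 1.09 in treated WT cells.

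Counted together, 6 of the 9 genes were called higher in untreated Irf3/7-/- than in untreated WT cells, and none lower. Among all genes tested in that comparison, 1.17% were called higher. In treated cells, 7 of the 9 were called higher, where 4.61% of all genes were, and Hdc was called lower, where 2.69% were. Those 7 include Il13, whose WT levels are uncertain, since the study's separate table gives the opposite direction with c-di-GMP. The median log2 difference over the 9 was 1.10 untreated and 1.59 treated, beside -0.01 and -0.02 over all genes tested. The FPKM of Fcer1a, Ms4a2, Mcpt8, Prss34, Cpa3 and Gata2 summed to 169 in untreated and 260.4 in treated Irf3/7-/- cells, and to between 56.3 and 92.2 in the other 6 conditions. At a pseudocount of 1 FPKM, Mcpt8 (0.998) and Gata2 (0.88) were no longer called in untreated cells. In these bulk samples, more cells of a type and more RNA per cell cannot be told apart.

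**Figure D2:**
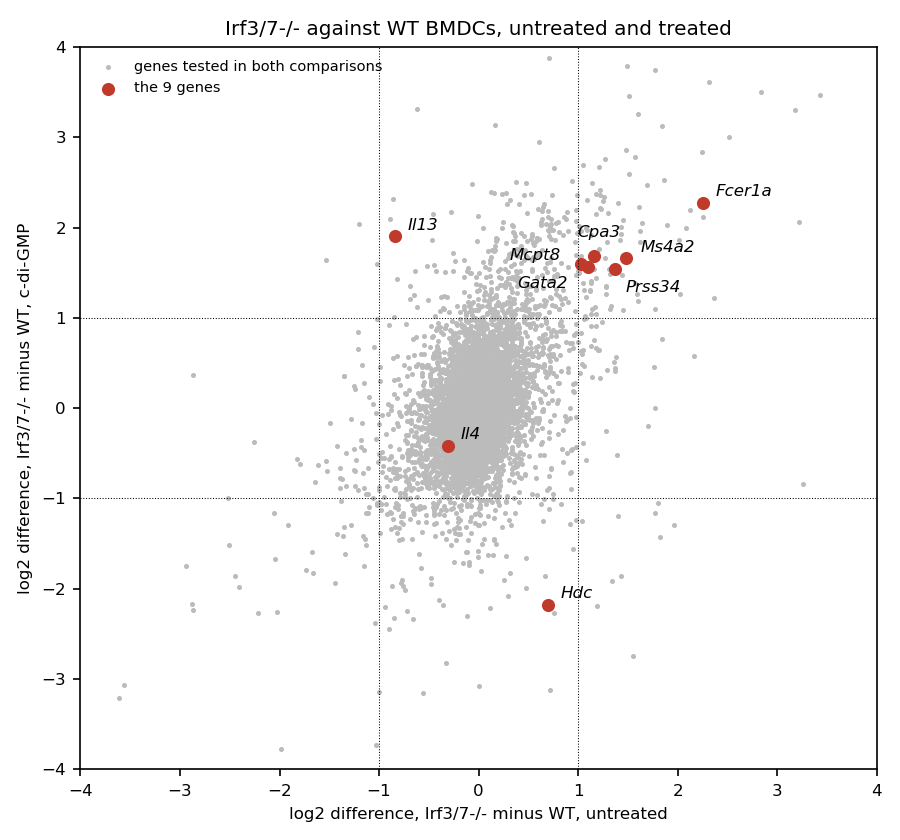
Log2 difference of FPKM + 0.1 between Irf3/7-/- and WT BMDCs, untreated (x axis) and with c-di-GMP (y axis), for 10695 genes tested in both comparisons (grey; 26 lie outside the axes) and the 9 genes (red); dotted lines mark 2-fold. Of the 9, the 6 genes of the IgE receptor, granule proteases and Gata2 lie beyond 2-fold on both axes, Il13 lies above the line only with c-di-GMP (1.91) and Hdc below it only with c-di-GMP (-2.18). The WT levels of Il13 are uncertain.

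The treated Irf3/7-/- cells were also set against treated Irf1-/- cells, a comparison that shares the Irf3/7-/- values with the one above. Here 7 of the 9 genes were called higher, where 6.62% of all genes were, and Hdc was called lower, where 3.22% were. The log2 differences were 1.75 for Fcer1a, 1.12 for Ms4a2, 1.51 for Mcpt8, 1.65 for Prss34, 1.14 for Cpa3, 1.27 for Gata2, 1.32 for Il13 and -1.30 for Hdc. Ms4a2 (0.95) and Il13 (0.82) were under 2-fold at a pseudocount of 1 FPKM. Between Irf1-/- and WT cells none of the 9 was called, untreated (4.78% of all genes called in either direction) or treated (7.56%). The largest treated difference with intervals apart was Hdc, at -0.87, below the 2-fold limit.

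Hdc (chr2:126593667-126619299, minus strand), whose product makes histamine from histidine, did not follow the other mast cell and basophil genes. In WT cells it was at 3.45 FPKM untreated (interval 2.53 to 4.38) and 79.1 FPKM with c-di-GMP (60.7 to 97.5), a 22.3-fold difference. In Tmem173-/- cells it was at 3.56 and 3.69 FPKM, with intervals that nearly coincided. In Irf1-/- cells it rose from 2.83 to 43.2 FPKM (33.4 to 52.9), or 14.8-fold, and in Irf3/7-/- cells from 5.64 to 17.4 FPKM (13.5 to 21.4), or 3.05-fold. The 3 treated conditions that responded did not overlap each other, and the 5 remaining conditions lay between 2.83 and 5.64 FPKM. On the log2 scale the change with c-di-GMP was 4.48 in WT, 0.05 in Tmem173-/-, 3.89 in Irf1-/- and 1.61 in Irf3/7-/- cells, so that Irf3/7-/- and WT cells differed by -2.87 in this change. Without values per culture, that difference was not tested.

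With c-di-GMP, the members called within each genotype were few and their share was near that of all genes in WT and Irf3/7-/- cells. In WT cells Hdc was called higher and Il13 lower, each 1 of 9 genes where 10.5% of all genes tested were called higher and 9.96% lower. For Il13 the study's separate table gives the opposite direction. In Irf1-/- cells Fcer1a and Hdc were called higher, 2 of 8 tested, where 9.67% of all genes were. In Irf3/7-/- cells only Hdc was called, 1 of 9 where 10.2% of all genes were called higher, although all 9 log2 differences were positive. None of the 7 genes tested was called in Tmem173-/- cells, where 0.0552% of all genes were. In treated Tmem173-/- against treated WT cells, 3 of 8 genes were called lower, Il4 (-2.18), Prss34 (-1.22) and Hdc (-4.39), where 13.5% of all genes were.

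**Figure D3:**
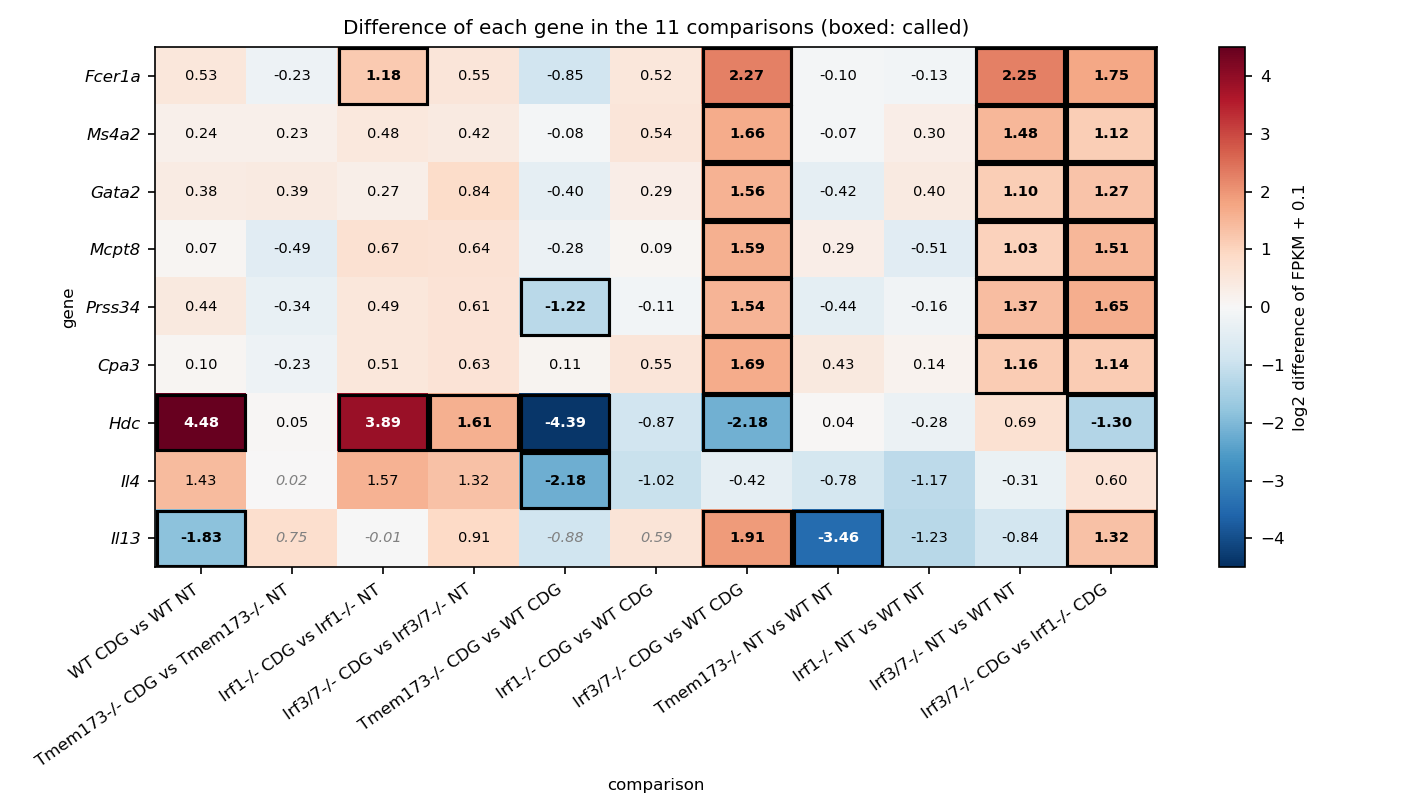
Log2 difference of FPKM + 0.1 of each gene (rows) in the 11 comparisons (columns; the condition named first minus the condition named second), coloured from blue (lower) to red (higher); boxed values were called and grey italic values were under 1 FPKM in both conditions. The boxes gather in the columns that compare Irf3/7-/- with WT or Irf1-/- cells and in the Hdc row.

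Il4 (chr11:53602982-53618669, minus strand) was low throughout. It was at 1.17, 0.637, 0.464 and 0.921 FPKM in untreated WT, Tmem173-/-, Irf1-/- and Irf3/7-/- cells. With c-di-GMP it was at 3.30, 0.649, 1.58 and 2.45 FPKM. The treated value was the higher one in WT, Irf1-/- and Irf3/7-/- cells, by 1.43, 1.57 and 1.32 on the log2 scale, but the intervals overlapped in all 3 genotypes. In WT cells they met only narrowly, at 0.516 to 1.89 FPKM untreated and 1.89 to 4.72 FPKM treated. Each neighbour in the order of the 8 levels overlapped the next.

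Il13 (chr11:53631324-53634702, minus strand) had another order. It was at 2.17 FPKM in untreated WT cells (interval 1.29 to 3.03) and 0.537 FPKM in treated ones (0.231 to 0.824), a log2 difference of -1.83, the direction that the study's separate table does not share. It was at 0.107 and 0.246 FPKM in Tmem173-/- cells, at 0.866 and 0.857 FPKM in Irf1-/- cells, and at 1.17 and 2.29 FPKM in Irf3/7-/- cells, untreated and treated. The untreated Tmem173-/- level was lower than the untreated WT level by a log2 difference of -3.46, and Il13 was the only one of the 9 called between these conditions, where 5.95% of all genes were called lower. The treated Irf3/7-/- level was higher than the treated WT level, with a log2 difference of 1.91, but close to that of untreated WT cells. With levels this low, Il13 was not tested in 4 of the 11 comparisons.

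Il4 and Il13 lie beside each other on chromosome 11, followed by Rad50, a DNA repair gene, and by Il5, and the midpoint of Irf1 lies 139 kb from the Il13 start. Il5, the eosinophil growth factor gene of the same cluster, was at or near 0 in every condition, with a highest level of 0.0549 FPKM. Rad50 varied between 5.93 and 8.03 FPKM and was called in none of the comparisons with WT cells. Among the 16 genes of the table that overlap a window reaching 300 kb beyond Il4 and Il13, both included, Irf1 and the non-coding gene Gm12216 beyond it were the genes called lower between treated Irf1-/- and WT cells, and Il13 was the only one called higher between treated Irf3/7-/- and WT cells. The treated WT level of Il13 is uncertain, as given above.

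Over the 8 conditions, the 6 genes of the IgE receptor, proteases and Gata2 varied together, with Pearson r between log2 levels from 0.795 (Mcpt8 and Gata2) to 0.973 (Ms4a2 and Fcer1a). Hdc reached r of 0.196 to 0.408 with those genes and 0.879 with Il4, and Il4 and Il13 gave 0.401. The 8 points share genotypes, treatment and possibly cultures, so these values are descriptions. Among 5938 genes with a log2 range above 1, Fcer1a was among the 3 genes most like Ms4a2 (r = 0.973) and Prss34 (r = 0.971), and Cpa3 among those most like Mcpt8 (r = 0.942). None of these was the first in rank. The gene most like Ms4a2 was Dab2ip (r = 0.984), and that most like Mcpt8 was Capn5 (r = 0.958). The gene most like Fcer1a and Prss34 was Tmem9 (r = 0.977 and 0.990), that most like Gata2 was Gpr56 (r = 0.977), and that most like Cpa3 was Muc13 (r = 0.977). Hdc was most like Pias2 (r = 0.990), Il4 most like A530032D15Rik (r = 0.995), and Il13 most like Zdhhc2 (r = 0.969).

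Of 30 further basophil and mast cell genes, 17 were tested between treated Irf3/7-/- and WT cells. Their median log2 difference was 0.75 beside -0.02 over all genes. None of them was called lower, and 5 were called higher, where 4.61% of all genes were. They were Cma1 (mast cell chymase), Kit (the stem cell factor receptor of mast cells), Cd200r3 (a receptor of basophils and mast cells), Slc18a2 (which loads amines such as histamine into granules) and Itga2b (an integrin of mast cells and platelets). Itga2b was at 3.13 FPKM in treated WT and 12.0 FPKM in treated Irf3/7-/- cells, and Slc18a2 at 1.87 and 4.73 FPKM. The treated WT levels of Itga2b and Cd200r3, and calls against them, are uncertain, since the study's separate table lists higher levels. Cma1 and Kit were low, at 0.476 and 1.99 FPKM and at 0.624 and 1.47 FPKM. Of these 5, Cma1 (1.72 FPKM), Kit (1.39 FPKM), Cd200r3 (28.6 FPKM) and Itga2b (7.37 FPKM) were also called higher in treated Irf1-/- than in treated WT cells, 4 of 17 tested where 2.65% of all genes were, and Kit in treated Tmem173-/- cells as well (3.21 FPKM). In untreated cells only Slc18a2 was called, higher in Irf3/7-/- cells (1.49 and 3.34 FPKM), among 16 tested, where 1.17% of all genes were called higher. The mast cell tryptase Tpsab1, the chymase Mcpt9 and the mast cell receptor Mrgprb2 were listed at 0 in all 8 conditions, and the tryptase Tpsb2 reached at most 0.14 FPKM.

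Among the protease relatives of Mcpt8 and Prss34, the direction varied with the comparison. Granzyme B (Gzmb), a killer cell protease whose gene belongs to the same family as Mcpt8, was at 321 FPKM in untreated WT cells, 0.0685 in Tmem173-/-, 10.0 in Irf1-/- and 362 in Irf3/7-/- cells. Mcpt8 in the same conditions lay between 16.3 and 47.5 FPKM. Of 26 relatives, 8 were tested between treated Irf3/7-/- and WT cells. None was called lower, and 4 were called higher, where 4.61% of all genes were, namely Cma1, Ctsg (cathepsin G), Gzmb and Gzme. Granzyme levels in WT cells are uncertain, since the study's separate table lists far lower ones. Against treated Irf1-/- cells, 6 granzyme genes were called higher in treated Irf3/7-/- cells, where 6.62% of all genes were, and none lower. Between treated Irf1-/- and WT cells, those 6 genes were called lower, where 4.91% of all genes were, and Cma1 and Ctsg were called higher, whereas Mcpt8 (0.09), Prss34 (-0.11) and Cpa3 (0.55) were not called. Whether reads could be split between family members is not given in the sources used here.

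None of the 18 genes of IgE receptor signalling tested was called between untreated Irf3/7-/- and WT cells, where 1.17% of all genes were called higher and 0.863% lower. In treated cells 4 of 18 tested were called higher in Irf3/7-/- cells, where 4.61% of all genes were, and none lower. They included the adaptor genes Lat and Grap2 and the phospholipase gene Plcg1, which T cells also use. Among 11 genes of histamine handling, 3 were tested between treated Irf3/7-/- and WT cells. Slc18a2, already counted above, and Maoa, an amine oxidase, were called higher in Irf3/7-/- cells, where 4.61% of all genes were. Maoa was also called higher in treated Tmem173-/- and Irf1-/- cells, at 1.42 and 1.52 FPKM against 0.587 FPKM in WT and 2.57 FPKM in Irf3/7-/- cells. The histamine receptor Hrh2 was lower in Irf1-/- than in WT cells, at 1.37 against 5.98 FPKM untreated and 0.431 against 4.84 FPKM treated. Of 18 genes that respond to IL-4 or IL-13, 15 were tested with c-di-GMP in WT cells. None was called higher, and 8 were called lower, where 9.96% of all genes were. These 8 included the macrophage genes Mrc1 (9.52 to 0.721 FPKM) and Retnla (499.9 to 166 FPKM). For Retnla the study's separate table gives the opposite direction. Chi3l3, at 0 untreated and 7751 FPKM treated, and Ccl22, at 5771 and 0 FPKM, were not tested. For each of them, the status was OK in the condition with the high level but not in the condition listed at 0. Retnla was higher in Irf3/7-/- than in WT cells, at 2855 FPKM untreated and 1329 FPKM treated, and so it was in Irf1-/- cells, at 3267 and 913 FPKM. The medium held recombinant IL-4 in every condition.

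Markers of other cell types moved with the groups. The 8 T cell markers summed to 73.6 FPKM in untreated WT, 1.65 in Tmem173-/-, 6.69 in Irf1-/- and 102 in Irf3/7-/- cells, and to 53.5, 1.70, 11.3 and 179 FPKM in treated ones. All 7 T cell markers tested were called higher in treated Irf3/7-/- than in treated WT cells, where 4.61% of all genes were. In untreated cells none of the 7 was called, with a median log2 difference of 0.49 beside -0.01 over all genes. The T cell receptor chain gene Cd3e was at 5.41 FPKM in treated WT and 23.3 FPKM in treated Irf3/7-/- cells, and Cd8a at 16.5 and 60.8 FPKM. Cd4 did not exceed 0.154 FPKM in any condition. The WT level of Cd3e is uncertain, since the study's separate table lists a far lower one. Whether this holds for the other T cell markers was not tested, and their calls against WT cells carry the same limit. The 9 markers of NK and innate lymphoid cells summed to 700.3 FPKM in untreated and 723 FPKM in treated WT cells. In Irf3/7-/- cells they summed to 710.3 and 2208 FPKM. Most of this came from the granzyme genes Gzma and Gzmb, at 349 and 321 FPKM in untreated WT cells, where granzyme levels are uncertain. In treated Irf3/7-/- cells these 2 genes were at 899.8 and 1242 FPKM. Within Irf3/7-/- cells Klrb1c (4.05 to 0.618 FPKM) and Eomes (13.6 to 6.36 FPKM) were called lower with c-di-GMP. Prf1, Gzma, Gzmb, Il7r and Rora were called higher there. T cells and innate lymphoid cells can express Il4, Il13 and Gata3, and the part of these cells in the result was not tested.

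Eosinophil markers differed with the comparison. Of 9, 7 were tested between untreated Irf3/7-/- and WT cells. Epx, Prg2, Ear1 and Ear6, 4 of the 7, were called lower in Irf3/7-/- cells, where 0.863% of all genes were. The eosinophil granule protein gene Prg2 was at 283 against 676 FPKM. In treated cells, of 8 tested, 1 was called higher, Siglec5, where 4.61% of all genes were, and 1 lower, Ear1, where 2.69% were. Against treated Irf1-/- cells, 5 of 8 tested were called higher in treated Irf3/7-/- cells, where 6.62% of all genes were. They were Epx, Prg2, Prg3, Ear1 and Ear6. None was called lower, and the median log2 difference was 1.48. The list summed to 1518 FPKM in untreated WT and 854 FPKM in untreated Irf3/7-/- cells, and to 1288 and 879.7 FPKM in treated ones. Neutrophil markers summed to 187 and 129.6 FPKM in Irf3/7-/- cells and 227 and 176 FPKM in WT cells, whereas Tmem173-/- cells reached 1449.6 and 1179.5 FPKM. The part of these cells in the levels of the 9 genes was not tested.

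**Figure D4:**
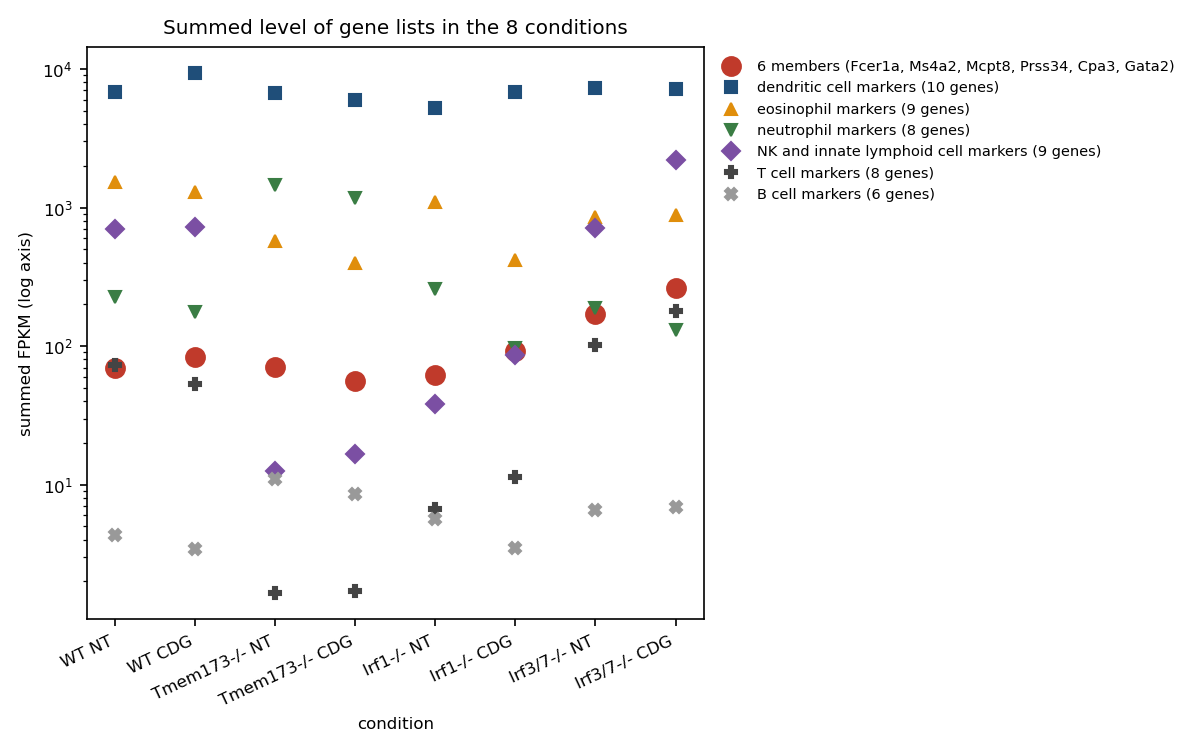
Summed FPKM (log axis) of 6 of the genes and of markers of other cell types in the 8 conditions. The 6 genes reach 169 and 260.4 in Irf3/7-/- cells and at most 92.2 elsewhere. T cell and NK markers are also highest in treated Irf3/7-/- cells (179 and 2208) and are lowest in Tmem173-/- cells. Eosinophil markers are highest in untreated WT cells (1518).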

How the data were processed

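RNA of 16 BMDC samples, 2 for each of 8 conditions, was sequenced from stranded mRNA libraries. The authors deposited 1 gene table with an FPKM, an interval and a status for each condition, in which Cuffdiff (version 1.06 in the submitters' processing notes) had combined the replicates, so neither counts nor depth per sample can be given. The study's methods state a strand-specific setting for another tool, while the aligner and the setting of the Cuffdiff run are not given in the sources used here. Those notes name mm9, but the loci of 21454 of 21681 genes overlapped their GRCm38 position, and GRCm38 coordinates are printed. The treated Tmem173-/- column, whose name ends in GDP rather than CDG, was read as c-di-GMP. The 4 columns of another knockout were not used. In each condition 70 to 105 genes had an FPKM outside their own interval, but none of the values of the 9 genes.

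FPKM were compared as log2(FPKM + 0.1), which understates the change of low genes, in 11 comparisons over the whole table, where both statuses were OK. The call rule was tested on simulated data, whose noise was drawn from the deposited intervals and held no spread between cultures. That test cannot show how often the rule errs between cultures. Genes and lists were chosen with earlier results of these data known, so counts are descriptions. Named were the 9 genes, the targeted genes, list genes called in at least 1 comparison or at 0, and for each gene the 3 with the highest r among those with at least 1 FPKM somewhere. Alternatives changed the pseudocount (1 or 0.01), the minimum (none or 5 FPKM), the fold (4), the centring and the use of intervals. Python 3.11.15, pandas 2.3.3 and numpy 2.4.6 were used, with RefSeq promoter windows. The promoter words were chosen after the levels were known, and longer forms of the interferon regulatory factor and STAT words, searched first, are not reported here, nor is 1 gene of the IgE receptor signalling list.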

Additional observations from a re-analysis of the deposited data

How the results depend on the processing

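Of 77 repeats of the 11 counts of called genes, 65 stayed within 1.5 times the reported count. With a limit of 4-fold, the count became 1 for c-di-GMP in WT cells, 1 in Irf1-/- and 0 in Irf3/7-/- cells, 2 for treated and 1 for untreated Irf3/7-/- against WT cells, and 0 for treated Irf3/7-/- against Irf1-/- cells. With a minimum of 5 FPKM it became 1 for c-di-GMP in WT cells and 0 for untreated Tmem173-/- against WT cells, since Il13 was then not tested. With a pseudocount of 1 FPKM it became 1 for c-di-GMP in Irf1-/- cells. With the fold change alone it became 2 for c-di-GMP in Irf3/7-/- cells (Hdc and Il4), 1 for treated Irf1-/- against WT cells (Il4) and 2 for untreated ones (Il4 and Il13). No log2 difference of a called gene changed sign. A pseudocount of 0.01, no minimum, and centring, which moved the median by -0.04 to 0.05 on the log2 scale, changed no call among the 9 genes. No paired analysis was possible because the table holds no value per replicate, and for the same reason no replicate could be left out. The intervals come from the authors' model and may not cover the spread between cultures, and levels of Il4 and Il13 near 1 FPKM limit what their differences can show.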

Other observations

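Of the other cytokine genes of type 2 immunity, Il31 and Il33 were called higher with c-di-GMP in WT cells. Il31, which encodes an itch-inducing cytokine, was listed at 0 in untreated WT cells and at 12.9 FPKM in treated ones, and at 2.15 and 0.247 FPKM in treated Irf1-/- and Irf3/7-/- cells. Il33, the gene of an alarmin that activates basophils, mast cells and innate lymphoid cells, was at 21.6 FPKM in treated WT, 67.8 in treated Irf1-/- and 9.63 in treated Irf3/7-/- cells. In untreated cells it was at 4.58, 6.01 and 15.9 FPKM in the same order. Of the 4 genotypes only Irf3/7-/- had a lower Il33 level after treatment than before, a difference that was not called. Il1rl1, which encodes the IL-33 receptor, was lower after c-di-GMP in WT (6.55 and 1.55 FPKM), Irf1-/- (26.9 and 2.36 FPKM) and Irf3/7-/- cells (6.74 and 3.14 FPKM). Il9 was at 3.22 FPKM in treated Irf1-/- cells and below 1 FPKM in the other 7 conditions. Csf2, the GM-CSF gene, was at 38.8 FPKM in treated Irf3/7-/- against 4.93 FPKM in treated WT cells, and at 12.1 and 7.92 FPKM in the untreated ones. The WT levels of Il31 and Csf2 are uncertain, since the study's separate table lists far lower ones.

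Cd200r3, a receptor of basophils and mast cells, was highest in treated Irf1-/- cells, at 28.6 FPKM, against 8.76 FPKM in treated Irf3/7-/- cells. In treated WT cells Cd200r3 was at 4.32 FPKM, a level that is uncertain. The study's separate table lists a higher one. Cd200r3 therefore had another order than Fcer1a, Mcpt8 and Prss34. The difference between these patterns was not tested.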
